A study of Mus musculus with 2 samples.

Results

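The mitochondrial carrier family was described in pancreatic beta cells, which secrete insulin, of mice with floxed alleles written as MytF/F, Myt2F/F and Myt3F/F, together with the transgene RipCre. The members were all genes whose symbol reads Slc25a followed by a number, or Ucp1, Ucp2 or Ucp3. The deposited tables held 50 such genes among 55487 genes. Myt2 and Myt3 are other names of Myt1l and St18, zinc-finger transcription factors related to Myt1, and RipCre is a Cre recombinase driven by the rat insulin promoter, so that cells in which this promoter is silent should keep the floxed alleles. The mice were 2 months old, the material was described as pooled males and females, and the cells were sorted by fluorescence after trypsin treatment of isolated islets. The study asked which genes depend on these factors when blood glucose is normal. There were 2 RNA sequencing libraries, both of mutant cells and both in the same group, and library 2 carries the word duplicate in its label. No value below sets mutant against control cells, because the control samples were not analysed here.

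SLC25 proteins lie mostly in the inner mitochondrial membrane, which small charged molecules cannot cross by themselves, and exchange nucleotides, phosphate, organic acids, amino acids and cofactors between the cytosol and the matrix. The uncoupling proteins belong to the same family, and the founding member, Ucp1, lets protons leak back into the matrix of brown fat cells. In beta cells this traffic is tied to insulin secretion, because glucose carbon is turned into ATP in the mitochondria and a part of it leaves them as citrate, malate and glutamate.

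Library 1 held 50121771 counted reads and library 2 held 39003197. A count of 0 allowed a level of up to 0.0599 CPM (deposited counts scaled to the library total) in library 1 and 0.0769 CPM in library 2, taken as 3 reads. The 9 beta-cell markers, among them Ins1, Ins2, Mafa and Pdx1, were all at 1 CPM or more and summed to 180300 and 184484 CPM. The targeted genes Myt1, Myt1l and St18 were counted at 44.5 to 77.6 CPM in library 1 and 39.05 to 65.4 CPM in library 2. Counts were summed over all exons of a gene, so a deletion of some exons need not show in them. The libraries stood apart in their mix of sexes and in exocrine RNA. The level of Xist, made by female cells from their silenced X chromosome, was 5.01 CPM in library 1, against 653 CPM in library 2, while the 4 Y-linked genes ranged from 46.4 to 102 CPM in library 1 and from 21.4 to 64.2 CPM in library 2. By these values library 1 held little RNA of female cells, and library 2 held RNA of both sexes. All 7 acinar markers were detected in both libraries and none was at 0, and they reached a sum of 101 CPM in library 1, against 485 CPM in library 2. Other islet cells also left RNA, with 3 alpha markers at 469 and 336 CPM, 2 delta markers at 1526 and 1109 CPM and Ppy at 632 and 879 CPM in libraries 1 and 2. Nothing in the labels says whether the libraries came from separate mice. The differences in Xist and the Y-linked genes mean that they were not repeat runs of the same mix of cells, and the p-values below cover these 2 libraries only.

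Most carriers were expressed. Of the 50 members, 39 reached 1 CPM in both libraries, which was taken as detection. This was 78% of the family, where 55.3% of 21974 protein-coding genes and 24.4% of all genes met the same limit. Slc25a43 met it in library 1 only, with 1.60 CPM in library 1, against 0.769 CPM in library 2. The other 10 members lay far below, at no more than 0.231 CPM and 10 reads in either library. The 10 were Ucp1, Ucp3, Slc25a2, Slc25a21, Slc25a31, Slc25a34, Slc25a41, Slc25a45, Slc25a48 and Slc25a54.

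Levels of different genes were compared as TPM, the deposited value that divides each count by the length of all merged exons of the gene. The 39 detected members spanned from 1.65 TPM for Slc25a47 to 249.6 TPM for Slc25a5 in the mean of the libraries. Of these, 6 had 100 TPM or more, 23 had 10 to 100 TPM and 10 had less than 10 TPM. Their median was 17.9 TPM, against 14.8 TPM over the 13566 genes detected and 16.5 TPM over the 12142 protein-coding genes among them, and 23 of the 39 lay above the median of all detected genes. The family summed to 1682 TPM in library 1 and 1695 TPM in library 2. The 10 highest members held 71.5% of this sum in library 1 and 71.6% in library 2.

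**Figure D1:**
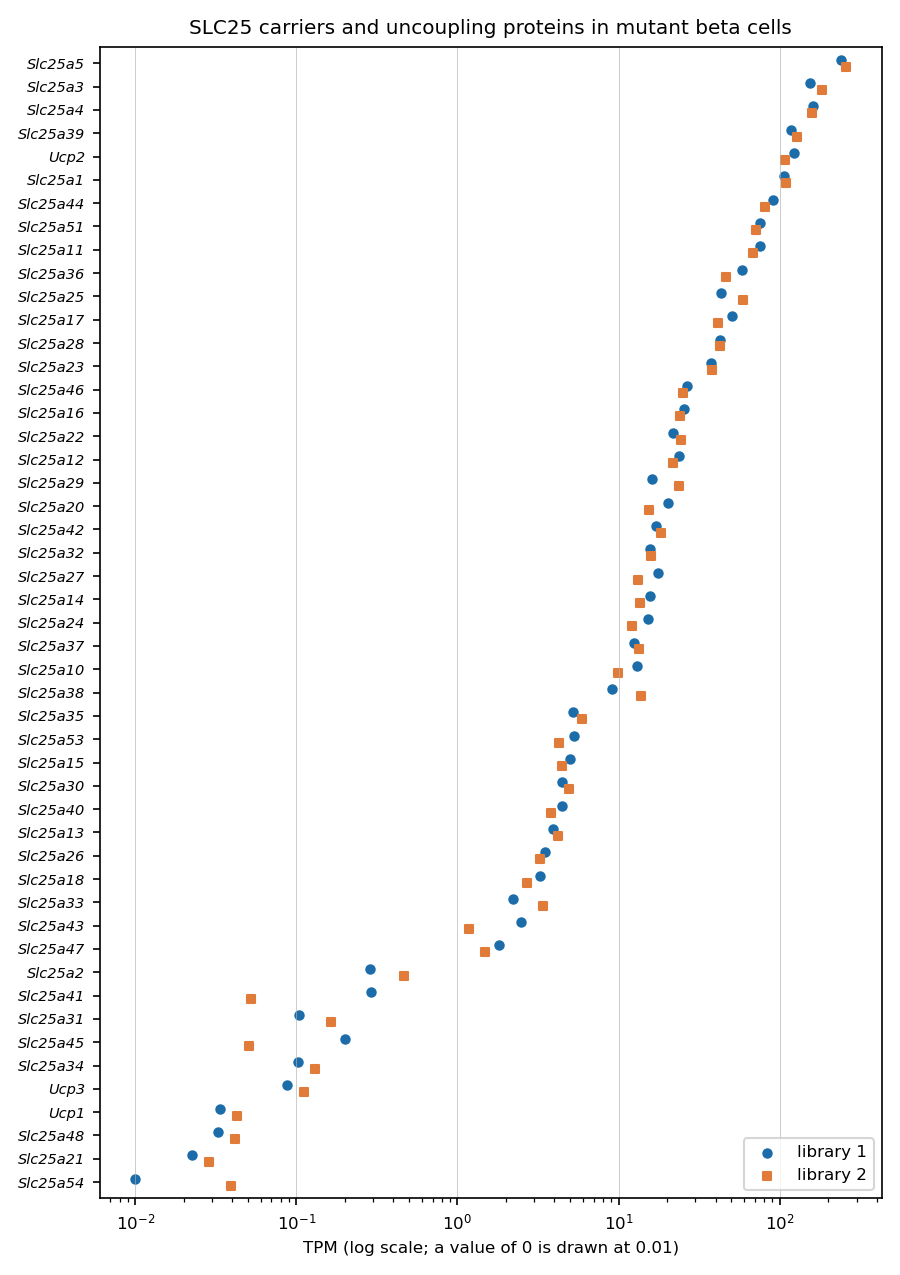
Level of 49 of the 50 members in TPM (horizontal log axis) in library 1 (circles) and library 2 (squares), ordered by the mean of the 2 libraries. A gap separates the 39 drawn members above 1 TPM in both libraries from the 10 members whose highest level is 0.467 TPM.

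The highest members move the substrates of ATP synthesis. Slc25a5, the widespread ADP/ATP carrier that exports ATP in exchange for ADP, had 239.6 TPM in library 1 and 259.6 TPM in library 2. Slc25a3, which brings in phosphate for ATP synthesis, had 154 TPM in library 1 and 182 TPM in library 2. Slc25a4, the ADP/ATP carrier best known from heart and skeletal muscle, had 160 TPM in library 1 and 158.5 TPM in library 2. Both values of Slc25a5 lay above those of the other members, while the values of Slc25a3 and Slc25a4 overlapped. Slc25a39, which takes glutathione into mitochondria, followed with 118 TPM in library 1 and 128 TPM in library 2. Ucp2 had 123 TPM in library 1 and 109 TPM in library 2. Slc25a1, the citrate carrier, had 107 TPM in library 1 and 109 TPM in library 2. The values of Ucp2 overlapped with those of Slc25a39 and of Slc25a1.

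By merged exon length, the order below these was Slc25a44, Slc25a51, Slc25a11 and Slc25a36. Slc25a44, a carrier of branched-chain amino acids, had 90.5 TPM in library 1 and 81.3 TPM in library 2. Slc25a51, which imports NAD, had 75.6 TPM in library 1 and 71.6 TPM in library 2. Slc25a11, which exchanges oxoglutarate for malate, had 75.8 TPM in library 1 and 68.1 TPM in library 2. Slc25a51 and Slc25a11 overlapped. Slc25a36, a carrier of pyrimidine nucleotides, had 58.7 TPM in library 1 and 46.1 TPM in library 2. Over the detected members, the libraries told 13 of the 38 neighbouring pairs of the order apart, meaning that their values did not overlap. With 2 values per gene this can also arise without a difference, so the rank of a single gene is loose in most of the order.

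The gene length used for scaling shapes the order at the top. The merged exons of Slc25a3 span 5550 bases, while the principal transcript in the GENCODE M21 annotation has 1612 bases. For Ucp2 the lengths were 6989 and 3988 bases, and for Slc25a5 they were 1646 and 1240 bases. Scaled by the principal transcript, an alternative chosen after the data were seen, Slc25a3 stood first at 429 TPM in the mean of the libraries, Slc25a5 second at 246 TPM and Ucp2 next at 151 TPM. Below Slc25a1, which stayed at rank 6, Slc25a25 came at rank 7 with 91.1 TPM, Slc25a28 at rank 8 with 77.2 TPM, Slc25a36 at rank 9 with 71.5 TPM and Slc25a51 at rank 10 with 67.9 TPM. Slc25a44 was at rank 12 with 65.2 TPM. The count of Slc25a5 is itself uncertain, since 33.8% of its 50-base words also occur in other annotated genes, all 9 of them processed pseudogenes. The pseudogenes together reached 1.48 CPM in library 1, with 1.67 CPM in library 2, while Slc25a5 itself had 143 and 157 CPM.

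Summed by the known substrates, the adenine nucleotide carriers came first. Their 7 members held 496 TPM in library 1 and 528 TPM in library 2, which was 29.5% and 31.2% of the family. Slc25a5 and Slc25a4 made up most of it. The ATP-magnesium/phosphate carriers, which are regulated by calcium and set the adenine nucleotide content of the matrix, were led by Slc25a25. It had 43.4 TPM in library 1 and 59.4 TPM in library 2, and Slc25a23 had 37.6 TPM in library 1 and 38.2 TPM in library 2. Slc25a24 was lower, with 15.2 TPM in library 1 and 12.2 TPM in library 2. Slc25a31, the ADP/ATP carrier of the testis, had 4 reads in library 1 and 5 reads in library 2.

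Cofactor carriers formed the next group by merged exon length, with 323 TPM in library 1 and 321 TPM in library 2, and all 9 members were detected. With the principal transcript length they held 17.7% of the family in library 1 and 17.2% in library 2, below Slc25a3, the only phosphate carrier, at 18.8% in library 1 and 21.6% in library 2. Behind Slc25a39 and Slc25a51 stood Slc25a17, a carrier of the peroxisome, with 50.7 TPM in library 1 and 41.5 TPM in library 2. The coenzyme A carriers Slc25a16 and Slc25a42 had 25.5 and 17.1 TPM in library 1 and 24.0 and 18.4 TPM in library 2. Slc25a32, a carrier of folate or FAD, and Slc25a26, which carries S-adenosylmethionine, had means of 15.7 ± 0.163 and 3.39 ± 0.172 TPM (SD, n = 2). Slc25a40, the close relative of Slc25a39, had 4.43 TPM in library 1 and 3.81 TPM in library 2.

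Carriers of organic acids held 11.6% of the family in library 1 and 11.0% in library 2. The citrate carrier Slc25a1 and the oxoglutarate/malate carrier Slc25a11 gave nearly all of it. Slc25a10, the dicarboxylate carrier, had 13.0 TPM in library 1 and 9.90 TPM in library 2. Slc25a21, which carries oxodicarboxylates of lysine and tryptophan breakdown, had 2 reads in each library.

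The glutamate and aspartate carriers were all detected, but at lower levels. Slc25a12, the aspartate/glutamate exchanger of the malate-aspartate shuttle in excitable tissues, had 23.7 TPM in library 1 and 21.8 TPM in library 2. Slc25a13, the form known as citrin and best known from liver, had 3.92 TPM in library 1 and 4.21 TPM in library 2. The glutamate carrier Slc25a22 had 21.8 TPM in library 1 and 24.6 TPM in library 2. The other glutamate carrier, Slc25a18, had 3.25 TPM in library 1 and 2.703 TPM in library 2. In both exchanger and glutamate carrier pairs, the libraries of the higher gene lay wholly above those of the lower.

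Among carriers of other amino acids and of carnitine, 5 of 6 were detected. Behind Slc25a44, Slc25a29, a carrier of basic amino acids, had 16.2 TPM in library 1 and 23.8 TPM in library 2. Slc25a20, which brings acylcarnitines in for fatty acid oxidation, had 20.3 TPM in library 1 and 15.5 TPM in library 2. Slc25a38, the glycine carrier needed for heme synthesis, had 9.16 TPM in library 1 and 13.7 TPM in library 2. The ornithine carrier Slc25a15 had 5.00 TPM in library 1 and 4.44 TPM in library 2, and its relative Slc25a2 had 7 reads in library 1 and 9 reads in library 2.

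The uncoupling branch was carried by Ucp2. It gave 76.6% of the summed TPM of the branch in library 1 and 77.3% in library 2. In raw depth it had 15687 reads in library 1 and 10874 reads in library 2, or 313 CPM (exact 95% interval 308 to 318) and 279 CPM (274 to 284). Ucp1 had 1 read in each library and Ucp3, the form of skeletal muscle, had 5 reads in each. Of 3 fixed markers of brown fat, Cidea and Cox8b were under 1 CPM in both libraries, and Ppargc1a, which is not restricted to that tissue, had 1.10 CPM in library 1, against 2.69 CPM in library 2. Slc25a27 had 17.5 TPM in library 1 and 13.1 TPM in library 2. Slc25a14 had 15.6 TPM in library 1 and 13.6 TPM in library 2, and both of these relatives are known for their expression in brain. Slc25a30 had 4.47 TPM in library 1 and 4.90 TPM in library 2. Part of the exons of Ucp2, 4.36%, overlaps the antisense gene Dnajb13, and the sources did not state whether reads were counted by strand. Larger shares overlap antisense genes in other members, among them Slc25a11 (8.92%), Slc25a46 (7.06%), Slc25a10 (6.60%), Slc25a37 (6.33%) and Slc25a25 (4.82%).

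Iron and pyrimidine carriers each came as a high and a low member. Of the mitoferrins, which import iron for heme and iron-sulfur clusters, Slc25a28 had 42.5 TPM in library 1 and 42.7 TPM in library 2. Slc25a37, the mitoferrin of developing red cells, had 12.4 TPM in library 1 and 13.3 TPM in library 2. The 3 erythroid markers summed to 0.998 CPM in library 1, against 2.33 CPM in library 2, and none was detected in both. Slc25a33, the other pyrimidine carrier beside Slc25a36, had 2.21 TPM in library 1 and 3.40 TPM in library 2. Of its exons 14.9% overlap the antisense gene Gm13068.

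The 9 members not assigned to a substrate held 2.48% of the family in library 1 and 2.26% in library 2. Slc25a46, a protein of the outer membrane that takes part in mitochondrial dynamics, led them with 26.7 TPM in library 1 and 25.1 TPM in library 2. Slc25a35 had 5.20 TPM in library 1 and 5.90 TPM in library 2, but 31.3% of its exons overlap Rangrf on the other strand, so its count is uncertain. Slc25a53 had 5.25 TPM in library 1 and 4.28 TPM in library 2.

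**Figure D2:**
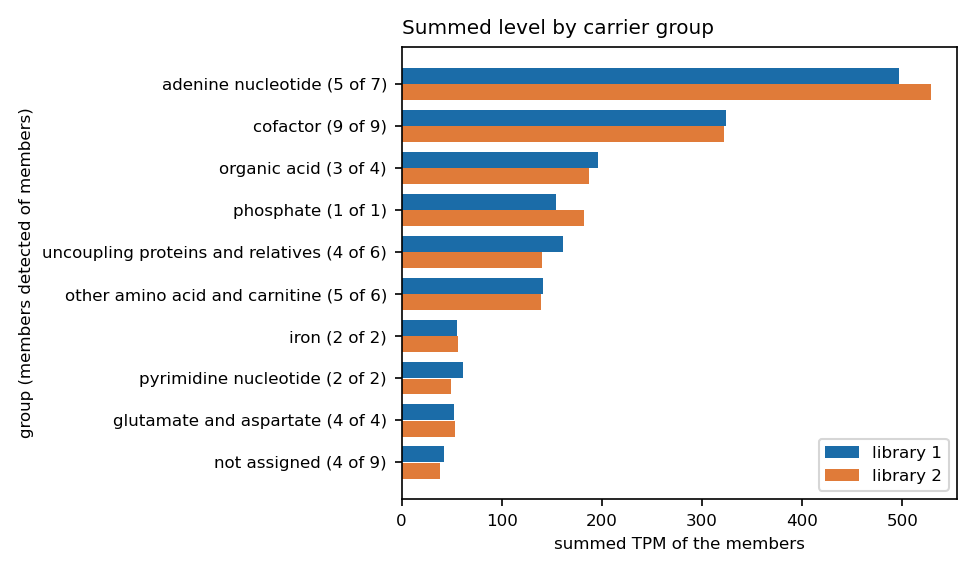
Summed TPM of the members of each carrier group (bars from 0) in library 1 and library 2, with the number of members detected in both libraries of the members in the group. The adenine nucleotide group reaches 496 and 528 TPM, and the group order is set by merged exon length.

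Members with related substrates were then set against each other within each library, as ratios of length-scaled levels with exact 95% intervals of the counts. All 15 fixed pairs had intervals that excluded 1 on the same side in both libraries. The pairs were chosen with earlier results of these data known. At the read counts of most of these genes the intervals are narrow, so that even small ratios exclude 1. The largest ratio was that of Ucp2 over Ucp3, at 1407 (603 to 4335) in library 1 and 976 (418 to 3005) in library 2. Slc25a39 exceeded Slc25a40 26.5-fold (24.5 to 28.8) in library 1 and 33.7-fold (30.6 to 37.1) in library 2. Slc25a36 exceeded Slc25a33 26.5-fold (21.2 to 33.7) in library 1 and 13.5-fold (11.0 to 16.8) in library 2, so that the libraries differed by more than the counting intervals. The same held for Slc25a39 over Slc25a40, Slc25a5 over Slc25a4, Slc25a1 over Slc25a11 and Slc25a3 over Slc25a5. It also held for Slc25a24 over Slc25a23, Slc25a25 over Slc25a24 and Slc25a15 over Slc25a29. In the other pairs the intervals of the libraries overlapped.

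Ratios of the metabolite shuttles followed. Slc25a12 exceeded Slc25a13 6.04-fold in library 1, against 5.18-fold in library 2, a mean log2 ratio of 2.48 ± 0.16 (SD, n = 2). Slc25a22 exceeded Slc25a18 6.72-fold in library 1 and 9.09-fold in library 2, and this ratio depended on the gene length used. Slc25a11 exceeded Slc25a10 5.84-fold in library 1 and 6.87-fold in library 2. Slc25a1 exceeded Slc25a11 1.41-fold in library 1 and 1.60-fold in library 2. Ucp2 exceeded Slc25a14 7.88-fold in library 1, against 7.96-fold in library 2, and the mean log2 ratio of 2.99 ± 0.01 had the smallest spread of the 15 pairs.

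Among the nucleotide and iron carriers, Slc25a5 exceeded Slc25a4 1.497-fold in library 1 and 1.64-fold in library 2. Slc25a28 exceeded Slc25a37 3.41-fold in library 1, against 3.20-fold in library 2. Slc25a25 exceeded Slc25a24 2.85-fold in library 1, against 4.88-fold in library 2. The ratio of Slc25a24 over Slc25a23 was 0.404 in library 1 and 0.319 in library 2, and that of Slc25a15 over Slc25a29 was 0.309 in library 1 and 0.187 in library 2. Slc25a16 over Slc25a42 stood at 1.49 in library 1 and 1.30 in library 2, and with the principal transcript length the interval no longer excluded 1 in both libraries. Slc25a3 over Slc25a5 was 0.642 in library 1 and 0.700 in library 2, and this order turned round with the principal transcript length, at a mean log2 ratio of 0.80 where merged exons gave −0.58.

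The size of several ratios, as the geometric mean of the libraries, moved by more than 1.5 times with the principal transcript length. Slc25a39 over Slc25a40 was 16.2 with the principal transcript and 29.9 with merged exons. Slc25a36 over Slc25a33 was 34.8 with the principal transcript and 19.0 with merged exons. Slc25a22 over Slc25a18 was 16.7 with the principal transcript and 7.81 with merged exons, so that its place beside Slc25a39 over Slc25a40 also turned. Slc25a25 over Slc25a24 was 8.90 against 3.73, Slc25a28 over Slc25a37 was 5.59 against 3.30, and Slc25a24 over Slc25a23 was 0.228 against 0.359, in each case with the principal transcript first. Slc25a3 over Slc25a5 was 1.74 with the principal transcript and 0.670 with merged exons. The exact intervals cover the counts and not the choice of length.

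**Figure D3:**
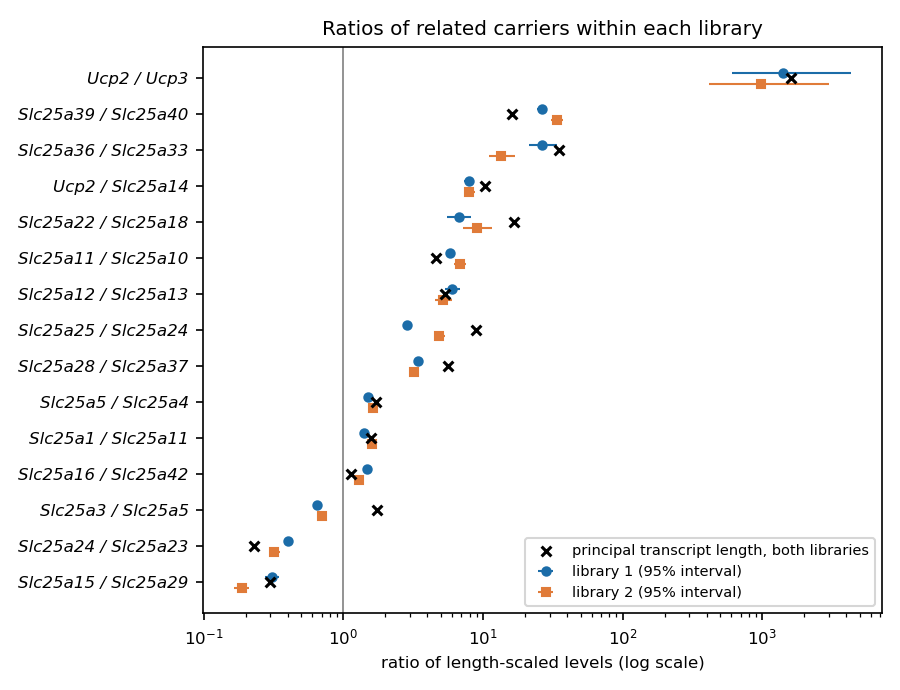
Ratio of length-scaled levels (horizontal log axis) for 15 pairs of related members in library 1 (circles) and library 2 (squares) with exact 95% intervals, and the mean ratio with the principal transcript length (crosses). Only the pair Slc25a3 / Slc25a5 lies on different sides of 1 under the alternative lengths.

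Several members lie beside each other in the genome, and their levels differed. On GRCm38, with less than 20000 bases between gene ends in GENCODE M21, there were 5 such pairs. They and this limit were chosen after the values were seen, and the levels are a description without a test. Ucp3 (ENSMUSG00000032942, chromosome 7 from 100472990 to 100486432, plus strand) ends 6904 bases before Ucp2 (ENSMUSG00000033685, chromosome 7 from 100493337 to 100502020, plus strand), with the ratio of levels given above. Slc25a43 (ENSMUSG00000037636, chromosome X from 36743659 to 36777202, plus strand) ends 18448 bases before Slc25a5 (ENSMUSG00000016319, chromosome X from 36795651 to 36798807, plus strand). Slc25a5 exceeded it 96.99-fold in library 1 and 221-fold in library 2. Slc25a23 and Slc25a41 are 2056 bases apart on chromosome 17, with 3625 reads against 7 reads in library 1 and 2893 reads against 1 read in library 2. Slc25a24 and Slc25a54 are 6461 bases apart on chromosome 3, with 949 reads against 0 in library 1 and 599 reads against 1 read in library 2. On chromosome 12, Slc25a29 and Slc25a47 point away from each other with 162 bases between them in GENCODE M21, and Slc25a29 exceeded Slc25a47 8.86-fold in library 1, against 16.1-fold in library 2. The RefSeq promoter of Slc25a47 lies further away, at 108850879 to 108851178, where GENCODE M21 starts the gene at 108836046.

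The promoters of the pairs Ucp2 and Ucp3, and Slc25a5 and Slc25a43, are shown as examples of neighbours that differ widely in level. These 2 pairs were picked after the values were seen, and Slc25a24 and Slc25a54, which are not shown, also differ widely. Each sequence holds 250 bases before and 50 bases after the transcript start given by RefSeq on GRCm38.p6. For Slc25a5 this window ends at 36795646, before the gene start at 36795651 in GENCODE M21. All are written 5′ to 3′ on the plus strand, with CpG dinucleotides in capitals.
Ucp2, chr7:100493108-100493407: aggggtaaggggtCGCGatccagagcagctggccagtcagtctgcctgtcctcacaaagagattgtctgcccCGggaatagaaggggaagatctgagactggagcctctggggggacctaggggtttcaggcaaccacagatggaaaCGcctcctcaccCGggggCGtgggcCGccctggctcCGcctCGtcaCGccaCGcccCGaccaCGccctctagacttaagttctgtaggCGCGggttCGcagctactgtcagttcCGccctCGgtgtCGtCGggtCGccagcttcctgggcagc
Ucp3, chr7:100472741-100473040: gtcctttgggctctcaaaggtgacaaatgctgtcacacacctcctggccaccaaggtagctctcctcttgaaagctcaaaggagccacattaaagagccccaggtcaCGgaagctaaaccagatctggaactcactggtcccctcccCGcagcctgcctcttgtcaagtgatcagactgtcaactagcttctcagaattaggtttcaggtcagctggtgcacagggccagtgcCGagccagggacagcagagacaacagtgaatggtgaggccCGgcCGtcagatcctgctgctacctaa
Slc25a5, chrX:36795347-36795646: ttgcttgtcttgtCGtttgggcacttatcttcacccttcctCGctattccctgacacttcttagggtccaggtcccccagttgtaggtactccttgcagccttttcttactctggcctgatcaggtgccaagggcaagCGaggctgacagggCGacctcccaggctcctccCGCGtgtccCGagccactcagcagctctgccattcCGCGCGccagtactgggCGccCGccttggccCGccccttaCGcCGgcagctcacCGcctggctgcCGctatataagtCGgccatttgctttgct
Slc25a43, chrX:36743382-36743681: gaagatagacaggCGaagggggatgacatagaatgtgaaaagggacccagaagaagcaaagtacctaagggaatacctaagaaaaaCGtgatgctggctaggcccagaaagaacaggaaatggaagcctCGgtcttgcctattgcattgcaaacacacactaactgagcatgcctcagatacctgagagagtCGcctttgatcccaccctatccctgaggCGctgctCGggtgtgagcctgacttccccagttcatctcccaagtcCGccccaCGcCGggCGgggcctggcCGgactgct

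The promoter of Ucp2 held 21 CpG dinucleotides and that of Ucp3 held 5. Slc25a5 had 18 and Slc25a43 had 11. Among the neighbours not shown, Slc25a24 had 19 and Slc25a54 had 15, while Slc25a29 had 32 and Slc25a47 had 7. A RefSeq promoter was found for 39 of the 50 members, with 49 promoters in all. Only 30 of the detected members had one, and some of these had several promoters, each counted separately below. The 39 promoters of these 30 detected members had a median of 17 CpG dinucleotides. The 10 promoters of 9 members not detected in both libraries had a median of 9. All 32851 promoters of the same length, from 27025 genes, had a median of 7. Levels did not follow the number closely, since Slc25a22, at 23.2 TPM in the mean, had promoters with 6, 8 and 10, and Slc25a31, with 4 reads in library 1 and 5 reads in library 2, had 22. Motifs were searched on both strands as exact letters. The palindromic site of NRF1, a regulator of nuclear genes for mitochondria, with any base at its centre, was found in 1 of the 39 promoters of detected members (2.56%), that of Slc25a3, and in 4.603% of all promoters. CCGGAAG, an ETS core that GABP can bind, was found in 6 of the 39 (15.4%) and in 8.86% of all promoters. The cyclic AMP response element TGACGTCA was found in 2 of the 39 (5.13%), in Slc25a36 and in 1 of the 3 promoters of Slc25a25, and in 1.79% of all promoters. TATAAA was found in 1 of the 39 (2.56%), that of Slc25a18, and in 13.6% of all promoters. All promoters include those of genes not detected here, and the part of detection in these medians and shares was not tested.

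**Figure D4:**
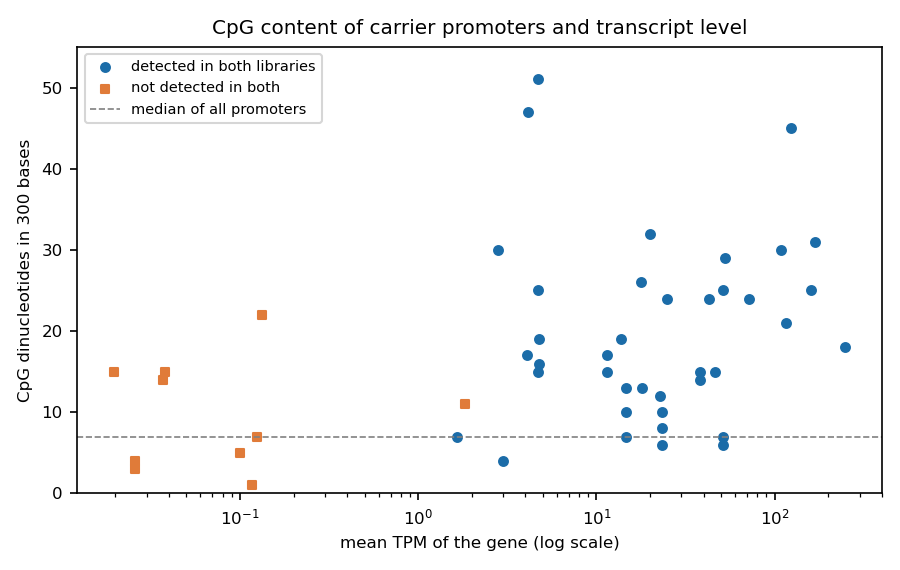
Number of CpG dinucleotides in each of the 49 promoters of 39 members (vertical axis) against the mean TPM of the gene (horizontal log axis), for members detected in both libraries (circles) and not (squares). The dashed line marks the median of 7 over all promoters, and genes with several promoters appear more than once.

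Between the libraries, most carriers differed by small factors. For every gene an exact binomial test, two-sided, set its counts against the library totals, with Benjamini-Hochberg adjustment over 20681 genes whose summed reads reached 10, 44 members among them. This compares the reads of the 2 libraries and not conditions. Calls required an adjusted p below 0.05 together with a difference of at least 2-fold. Slc25a43 was the only member called, 1 of 44 (2.27%), and 4.31% of all genes were called, 2.4% as higher and 1.91% as lower in library 1. It had 80 reads in library 1 and 30 reads in library 2, a log2 ratio of library 1 over library 2 of 1.04 (95% interval 0.43 to 1.71) and an adjusted p of 0.00234 in the exact binomial test. Slc25a45 was also above 2-fold, with 10 reads in library 1 and 2 reads in library 2, and did not pass (adjusted p = 0.181 in the exact binomial test). With TMM or DESeq2 scaling Slc25a43 was under 2-fold and was not called. By edgeR's exact test with the common dispersion of the libraries no member passed the adjusted p, and 1.03% of all tested genes did. Slc25a43 had an adjusted p of 0.746 in edgeR's exact test. The dispersion was estimated from the same 2 libraries, so it takes in the difference being tested.

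At any size of difference, 22 of the 44 members passed the adjusted p in the exact binomial test (50%), and 32.4% of all genes did, 19.0% as higher and 13.4% as lower in library 1. That share includes genes with few reads. Where the mean reached 1 CPM, 23 of 40 members passed, and 46.1% of all such genes did. Of the 22 members, 13 were higher in library 1 and 9 were lower, and with TMM scaling the split was 10 and 12. Of the 39 detected members, 27 differed by less than 1.2-fold (69.2%), and 73.5% of all detected genes did. Their median absolute log2 ratio was 0.15, against 0.14 over all detected genes. The median signed log2 ratio over the 44 members was 0.03, and over all tested genes it was 0.04.

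Among detected members, the differences of 1.5-fold or more were those of Slc25a38 and Slc25a33. Slc25a38 had 9.14 CPM in library 1, against 13.8 CPM in library 2, with a log2 ratio of −0.60 (−0.78 to −0.41, adjusted p = 9.99e-10 in the exact binomial test). Slc25a33 had 76 reads in library 1 and 92 reads in library 2, a log2 ratio of −0.64 (−1.10 to −0.18). Slc25a29 had 15.3 CPM in library 1, against 22.8 CPM in library 2, with a log2 ratio of −0.57 (−0.72 to −0.43). The well-counted Slc25a25 had 124 CPM in library 1, against 172 CPM in library 2, with a log2 ratio of −0.47 (−0.52 to −0.42). Acinar markers reached a sum of 101 CPM in library 1, against 485 CPM in library 2, in the same direction as these 4 genes, and their part in the result was not tested.

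In the other direction, Slc25a27 had a log2 ratio of 0.40 (0.26 to 0.53), Slc25a10 of 0.37 (0.21 to 0.54), Slc25a20 of 0.37 (0.26 to 0.48) and Slc25a36 of 0.33 (0.29 to 0.38). Slc25a4 had 6850 reads in library 1, against 5343 in library 2, and its log2 ratio of −0.0034 had an interval of −0.06 to 0.05. There are 4 X-linked members. Slc25a43, Slc25a53 and Slc25a14 were higher in library 1, with log2 ratios of 1.04, 0.28 and 0.18, of which that of Slc25a14 did not pass the test (adjusted p = 0.103 in the exact binomial test). Slc25a5 was lower in library 1, with a log2 ratio of −0.13 (−0.18 to −0.08). The libraries differed in Xist, with 5.01 CPM in library 1 against 653 CPM in library 2, and the part of this in these ratios was not tested.

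**Figure D5:**
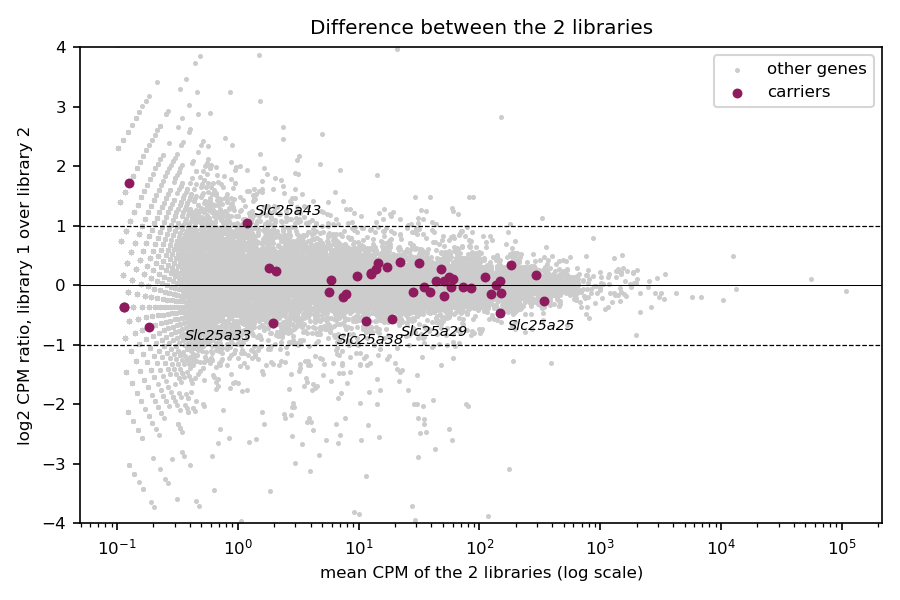
Log2 CPM ratio of library 1 over library 2 (vertical axis, cut at ±4, which leaves out 73 genes) against the mean CPM (horizontal log axis) for tested members, 1 of them left out, and all other tested genes. Dashed lines mark 2-fold, and Slc25a43 is the labelled member above the upper line.

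Transporters and enzymes that work beside the carriers were expressed throughout. All 32 genes of a fixed list were detected, with a median of 27.0 TPM. Acly, which splits the citrate that Slc25a1 exports into acetyl-CoA and oxaloacetate, was highest with 1617 TPM in library 1 and 1469 TPM in library 2. Mdh1, the cytosolic malate dehydrogenase, had 289 TPM in library 1 and 297 TPM in library 2. Mtch1, a distant relative of the carriers in the outer membrane, had 130 TPM in library 1 and 138 TPM in library 2. The lowest was Sfxn5, a sideroflexin, with 1.45 TPM in library 1 and 1.27 TPM in library 2. None of the 32 was called between the libraries at 2-fold, while 22 passed the adjusted p of the exact binomial test at any size of difference, 11 higher and 11 lower in library 1. Over all tested genes 4.31% were called and 32.4% passed at any size, and 46.1% passed at any size where the mean reached 1 CPM.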

How the data were processed

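RNA was sequenced from 2 libraries of sorted mutant beta cells, prepared with Illumina TruSeq DNA kits per the labels' protocols. Tools listed in the submitters' processing notes are STAR 2.7.8a, cutadapt 2.10 and featureCounts 2.0.2, with GRCm38.p6 as the build. Their parameters, the strand setting and the treatment of multimapping reads were not given in the sources used here. Per the file headers, the deposited tables give for each gene a raw count, a TPM value and a CPM value. The deposited CPM is the count over the library total, and the deposited TPM divides by gene length, which lay within 1% of the merged exons of GENCODE M21 in 98.3% of 16229 genes with more than 20 reads in library 1.

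From these values, means with the SD of the libraries, exact Clopper-Pearson intervals at 95% and ratios were computed with scipy 1.17.1 and pandas 2.3.3. Intervals and the limit of 3 reads cover counting error only, since PCR copies cannot be recognised without molecular identifiers. Between libraries, 0.5 read was added for log2 ratios, and the exact binomial test was adjusted over the 20681 genes with 10 or more reads. It was tested on simulated data that held counting error only. This does not show how the binomial test performs where libraries differ by more than counting error. edgeR 4.0.16 gave TMM scaling and an exact test with a common dispersion, and DESeq2 1.42.0 gave size factors; a quasi-likelihood fit was not possible, because 1 library against 1 leaves no residual degrees of freedom. Shared 50-base words were counted on both strands of the GENCODE M21 transcripts. All members enter the counts, sums and medians, 1 of them is not reported here by its own values, and values per library are given for the 10 highest by TPM, the fixed pairs, the uncoupling proteins, the X-linked members and any called, with further members added by group and by size of difference after their values were seen. Partners are named at the 3 highest and the lowest. Of the 55487 identifiers, 55227 were found in GENCODE M21. Protein sequences were planned and not analysed here. The members, lists and pairs were chosen with earlier results of these data known.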

Additional observations from a re-analysis of the deposited data

How the results depend on the processing

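The number of detected members ranged from 36 with detection at 5 CPM to 40 at 0.5 CPM or at 1 TPM, and was 39 and 40 in single libraries. The partner genes numbered 32 at 0.5 CPM and 30 at 5 CPM. The median log2(TPM + 1) of the detected members was 4.24, against 3.98 over all detected genes. It was 5.17 with CPM in place of TPM (4.62 over all genes), 4.17 with a pseudocount of 0.1 (3.89), 3.89 over all members (0.10 over all genes listed) and 4.36 with the principal transcript length (4.12). In single libraries it ranged from 4.21 to 4.28. The neighbouring pairs told apart numbered 12 to 15, and 14 of the 15 fixed ratios excluded 1 without length scaling or with the principal transcript length. The order of Slc25a3 and Slc25a5 reversed, to a log2 ratio of 1.18 without length scaling and 0.80 with the principal transcript length, since these divide by other lengths. Slc25a16 over Slc25a42 fell short at log2 ratios of 0.16 and 0.18. Between the libraries, 0 members were called with TMM scaling or DESeq2 size factors, where 22 passed without a fold threshold. Over all tested genes, 4.18% were called with TMM scaling and 4.17% with DESeq2 size factors, and 31.8% passed without a fold threshold with either. By edgeR's exact test with the common dispersion 0 members were called. In that test 1 member, Slc25a43, had an unadjusted p under 0.05 (0.0302, adjusted 0.746), as did 1097 of the 20681 tested genes. That test estimates its spread from the same libraries. The median log2 ratio of the members ranged from −0.03 to 0.06, with both signs. No paired analysis was possible because both libraries belong to 1 group. Depth limits the 10 members under 1 CPM, whose differences were not resolvable at 10 reads or fewer.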
